A study of Mus musculus with 2 samples.

Results

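Fibroblasts are the mesenchymal cells that build and remodel the extracellular matrix of a tissue, and in tumors they are a main source of fibrillar collagen. The cells described here are the collagen-high cells of subcutaneous CT26 tumors, a mouse colon carcinoma line grown in mice. A cell was taken when its UMIs (unique molecular identifiers, 1 per captured RNA molecule) of Col1a1, Col1a2 and Col3a1 together came to at least 50 per 10000 UMIs of the cell, when it had no UMI of Ptprc (CD45), Cd3e (T cells) or C1qa (macrophages), and when under 20% of its UMIs were mitochondrial. By this rule 57 of 13939 cells were collagen-high, 13 of 7163 in the library of untreated tumors (UT) and 44 of 6776 in the library of treated tumors (BUP). Because the members were selected on measured values of the 3 collagens and 3 immune genes, those values are a description and support nothing.

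Tumors were grown in male BALB/c mice of 6 to 8 weeks. The UT mice received no treatment, and the BUP mice received BUP-Gel, a hydrogel made from a lithocholic acid-derived gelator (A13) that carried the local anesthetic bupivacaine at 40 mg/kg. Cells of 3 tumors were pooled into 1 library for each condition, so there is 1 library of each and no replicate, and a difference between UT and BUP cannot be told apart from a difference between library preparations or single tumors. Neither library had the gel without the drug, so a difference made by bupivacaine cannot be told apart from one made by the gel. CD45+ and CD45- cells were sorted and mixed before loading, so that the share of fibroblasts among all cells is set in part by the mixing, and free RNA of the loaded cells can give single UMIs in any cell. The libraries shared 76 barcode sequences, among them those of 3 collagen-high cells, none of which was collagen-high in both.

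Resident fibroblasts of skin and other organs are commonly described by a "universal" program (Pi16, Dpt, Cd34, Clec3b), and fibroblasts activated in wounds and tumors by matrix-producing genes (Postn, Cthrc1, Lrrc15, Tnc), by contractile genes (Acta2, Tagln), which define myofibroblasts, or by cytokines and chemokines (Il6, Cxcl12, Ccl2), which define inflammatory fibroblasts. Transforming growth factor beta is the best known inducer of the contractile program, in part through serum response factor, which binds the CArG box of the promoters of contractile genes. The promoters of Acta2, the smooth muscle actin gene, and of Myl9, which encodes a myosin light chain, are shown because the contractile genes were carried by a small set of the collagen-high cells (below, by cell). They are the 300 bases from 250 before to 50 after the start of the gene in RefSeq on build GRCm38.p6, at chr19:34255324-34255623 on the minus strand and chr2:156775214-156775513 on the plus strand, written 5′ to 3′. Capitals mark each CArG box (C C, 6 of A or T, G G, a pattern that reads the same on both strands) with at most 1 other letter.
Acta2: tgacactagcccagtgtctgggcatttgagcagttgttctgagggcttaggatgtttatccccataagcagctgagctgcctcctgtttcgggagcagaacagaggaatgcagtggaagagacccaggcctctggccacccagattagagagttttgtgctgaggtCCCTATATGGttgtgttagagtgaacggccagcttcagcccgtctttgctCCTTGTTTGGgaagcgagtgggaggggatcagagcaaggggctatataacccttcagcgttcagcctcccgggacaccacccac
Myl9: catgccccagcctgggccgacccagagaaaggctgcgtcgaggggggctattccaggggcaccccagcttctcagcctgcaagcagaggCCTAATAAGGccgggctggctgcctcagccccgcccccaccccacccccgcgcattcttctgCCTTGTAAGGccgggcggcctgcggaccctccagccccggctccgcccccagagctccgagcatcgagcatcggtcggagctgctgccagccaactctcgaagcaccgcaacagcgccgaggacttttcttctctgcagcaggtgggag
The Acta2 window held 2 matches, each with 1 other letter, starting at -84 and -34 bases from the gene start, and the Myl9 window held 2, of which 1 was exact. Of 10 promoters of contractile genes in the table, 6 held such a match and 2 an exact one, against 21.1% and 1.63% of all 32851 promoters. A match is a description of letters and not a site in use. The exact motif had first been searched in the promoters of 5 lists, where Myl9 and Cnn2 alone held it, and the other letter was allowed after the Acta2 window had been seen. The table holds no Tagln promoter.

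The collagen sum of the UT members ran from 52.2 to 1667 UMIs per 10000 with a median of 286, and that of the BUP members from 58.8 to 737 with a median of 152. Just inside the threshold lay UT cells at 52.2 and 54.7 and BUP cells at 58.8 and 61.0. Just outside lay immune-negative cells at 43.4 and 41.7 in UT and at 44.8 and 44.3 in BUP. Immune-negative cells of at least 5000 UMIs below the threshold had a median collagen sum of 5.73 in UT and 6.33 in BUP, and 95% of them lay below 18.4 and 18.7, so the members stand away from the bulk of the CD45-negative cells but not by an empty gap.

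**Figure D1:**
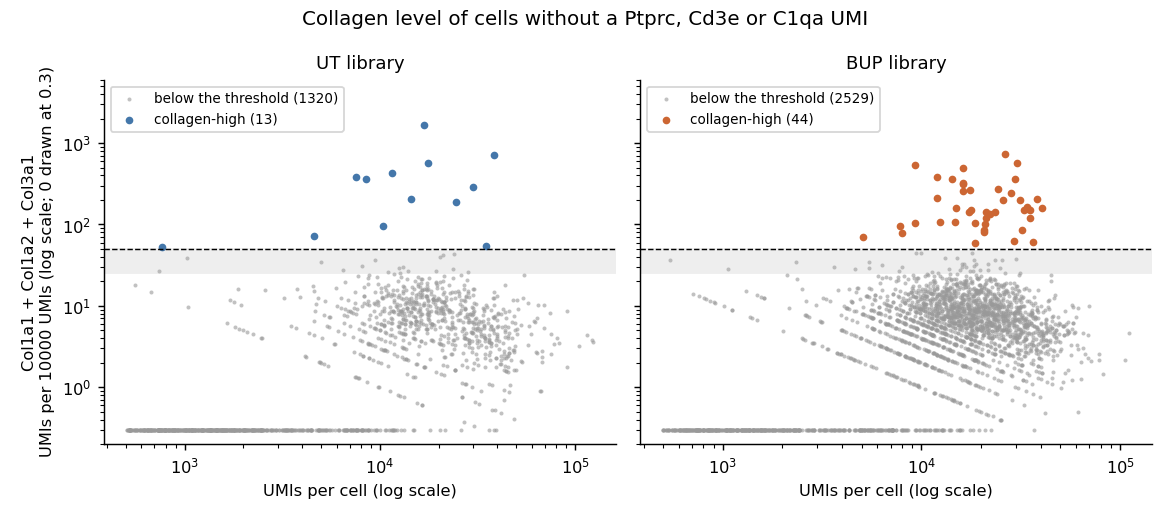
Summed Col1a1, Col1a2 and Col3a1 UMIs per 10000 UMIs (log scale) against UMIs per cell (log scale) for all cells without a Ptprc, Cd3e or C1qa UMI, UT library on the left and BUP library on the right, 1 point per cell. Coloured points are the 13 UT and 44 BUP collagen-high cells above the dashed threshold of 50, the grey band from 25 to 50 holds 17 UT and 37 BUP cells, and 0 is drawn at 0.3.

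Members had 766 to 38610 UMIs in UT (median 14489) and 5106 to 40626 in BUP (median 20845.5), which gave 220325 and 968372 UMIs in all. The UT values thus rest on few cells, and the 3 deepest UT cells held 46.9% of the UT UMIs. Of the UT members 2 had under 5000 UMIs. The cell of 766 UMIs had no UMI of Pdgfra and 22 of Spp1, and the cell of 4622 UMIs had 16 of Def8, a gene that was high in the other immune-negative cells (below). Among immune-negative cells of at least 5000 UMIs, the collagen-high share was 1.32% in UT (11 of 835 cells, exact binomial 95% interval 0.659 to 2.34) and 2.09% in BUP (44 of 2103 cells, 1.52 to 2.80). The intervals overlap, and they cover counting error only, as do all intervals given here.

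The fibroblast label was checked with genes outside the rule. Levels are given as UMIs per 1000000 UMIs of the cells concerned (CPM), with exact Poisson 95% intervals. The assay tags the 5′ end of each molecule, so that a UMI counts a molecule whatever the length of the gene. The comparison is with other immune-negative cells, that is 356 UT and 762 BUP cells of at least 5000 UMIs with a collagen sum under 5 per 10000. Their median depths were 20265.5 UMIs in UT and 17035.5 in BUP, beside 14489 and 20845.5 for the members. The comparison cells were thus deeper in UT and shallower in BUP. Of the 12 fibroblast identity genes that the rule did not use, 11 reached 100 UMIs over all members, and 9 of these were at least 4-fold higher in the members than in the other cells of the same library, in both libraries. Of all 2099 genes with at least 100 UMIs, 351 were (16.7%). Together the 12 genes were at 16320 CPM in the members, 833 CPM in the other immune-negative cells and 437 CPM in cells with a Ptprc UMI. The comparison cells were themselves chosen on low collagen. With the limit raised from 5 to 50 per 10000 they numbered 2881 and had the 12 genes at 1259.5 CPM. Against them 313 of the 2099 genes were at least 4-fold higher in members.

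Dcn, which encodes the collagen-binding proteoglycan decorin, was found in all 57 members, at 6468 CPM (6136 to 6812) for UT and 7296 CPM for BUP (7127 to 7468). Its level per cell ran from 3.87 to 152 UMIs per 10000 in UT (median 66.8) and from 7.83 to 140 in BUP (median 73.7), so that the libraries overlap over nearly their whole range. Mmp2, a gelatinase, stood at 1974 (UT) and 2465 CPM (BUP) and had no UMI in the 1118 other cells. After thinning to 2000 UMIs per cell, which left out 1 member, Mmp2 was found in 94.6% of members and 0% of other cells (96.5% and 0% before thinning).
Thy1 (CD90) was at 1520 and 1851 CPM in UT and BUP against 1.51 CPM in the other cells. Pdgfra, the receptor for platelet-derived growth factor alpha that marks fibroblasts, had a UMI in 12 of 13 UT cells and 42 of 44 BUP cells, at 354 CPM (280 to 442) and 340 CPM (304 to 379), against 7.82 and 12.7 CPM in the other cells of the same library. Fap, which encodes fibroblast activation protein, was sparse, with 63 UMIs in 26 of the 57 cells. Twist1 and Prrx1, mesenchymal transcription factors, were the genes of the list that did not reach 4-fold, since the other cells had them at 190 and 218 CPM, beside 146 and 379 CPM in the members.

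Defining markers of the other stromal cells were at or near 0. Pecam1, Cdh5, Kdr, Tie1 and Emcn (endothelium), Rgs5, Mcam, Des and Myh11 (pericytes and smooth muscle), Sox10 (Schwann cells), and every listed marker of adipocytes (4 genes) and skeletal muscle (6 genes) had no UMI in 1188697 UMIs, which allows up to 3 UMIs each. Of the 8 pericyte and smooth muscle markers, 4 had a UMI, and they came together to 32.8 CPM in 23 cells, led by Cspg4 with 16 UMIs. The 8 macrophage markers outside the rule summed to 105 CPM in members and 16161 CPM in immune cells, with Adgre1 and Ms4a7 at 0. Their range per cell was 0 to 2.26 UMIs per 10000 in UT and 0 to 25.8 in BUP. The 6 T cell markers summed to 3.37 CPM against 544 CPM in immune cells, with Cd8a, Cd4 and Cd2 at 0. The 5 neutrophil markers summed to 29.4 CPM, of which S100a8 in a UT cell gave 19 UMIs. Epithelial, Schwann cell and erythroid markers summed to 8.41, 3.37 and 5.05 CPM, and a list of 7 genes drawn from an earlier cluster of the CD45-negative cells to 181 CPM beside 699 CPM in the other cells.

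**Figure D2:**
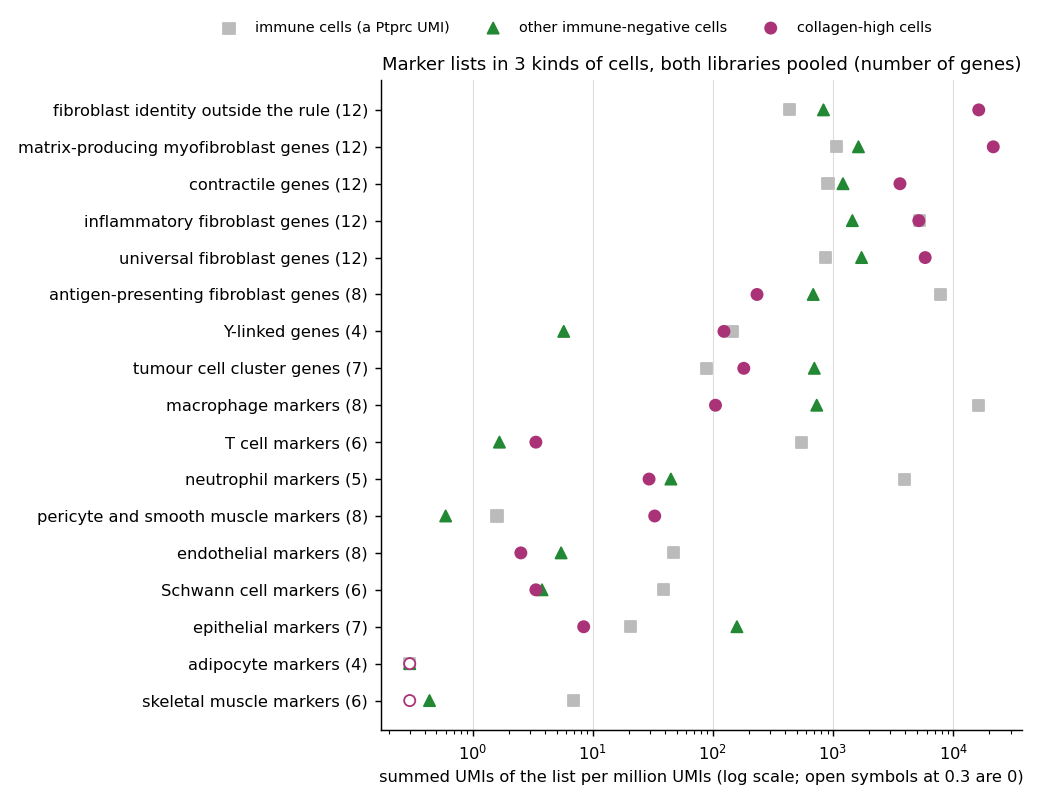
Summed level of 17 gene lists (number of genes in brackets) in CPM (log scale) over both libraries, for collagen-high cells (circles), other immune-negative cells (triangles) and cells with a Ptprc UMI (squares), where open symbols drawn at 0.3 are 0. The fibroblast identity genes stood at 16320 CPM in the collagen-high cells against 833 and 437 CPM, and the endothelial, adipocyte and skeletal muscle lists lay at 2.52, 0 and 0 CPM.

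The host mice were male, so 4 genes of the Y chromosome were read as well (Uty, Kdm5d, Eif2s3y, Ddx3y). Summed, they were at 150 CPM in UT members (103 to 210) and 118 CPM in BUP members (97.1 to 141), in 9 of 13 and 38 of 44 cells. The other immune-negative cells had them at 8.15 and 4.43 CPM, and cells with a Ptprc UMI at 138 and 154 CPM. Xist had no UMI in any member. The reverse held for Def8, which was at 4801 and 5751 CPM in the other immune-negative cells of UT and BUP and at 86.2 and 434 CPM in the members. Most members had 0 or 1 Def8 UMIs, and 10 members (1 UT, 9 BUP) had 10 or more, of which 8 also had a Y-linked UMI. Def8 and this split were picked after its values had been seen. The part of RNA from other cells or of doublets in those 10 cells was not tested. Without them 114 of 1645 genes were at least 2-fold higher in BUP (6.93%) and 124 lower (7.54%), by the comparison given further on.

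The 20 genes that lead the members over the other immune-negative cells, by size of ratio among genes at least 4-fold higher in each library and found in at least 30% of members, include Mmp2, Crabp1, Postn, Fibin, Col12a1, Gas1, Adamts2, Col5a2, Cxcl12, Col15a1, Lox, Tnc, Mfap5, Lum, Cpxm1, Sulf1, Bicc1, Pcsk5 and Ccl11. Most are secreted or matrix proteins. They include collagens (Col12a1, Col5a2, Col15a1), enzymes that trim or crosslink collagen (Adamts2, Lox), microfibril and glycoprotein genes (Mfap5, Tnc, Postn), a proteoglycan (Lum), and the chemokines Cxcl12 and Ccl11. The other cells had 0 to 28 UMIs of each of them. Adamts2, for example, was at 872 CPM in members (820 to 927) and had no UMI in the other cells, a ratio of at least 7298-fold.
The 10 genes with the highest level outside mitochondrial and ribosomal protein genes were Spp1, Col3a1, Col1a1, Dcn, Fn1, Malat1, Sparc, Eef1a1, S100a6 and Lgals1. Spp1, which encodes osteopontin, headed them at 12343 CPM, and the other immune-negative cells carried it at 9250 CPM. Fn1 (fibronectin) at 7140 CPM and Sparc, a collagen-binding glycoprotein, at 6065 CPM were above the 1212 and 268 CPM of the other cells.

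The matrix genes were described by class, beside a share of 16.7% of all 2099 measured genes at least 4-fold higher in members. Of the 11 fibrillar collagens 6 reached 100 UMIs, and these 6 (Col1a1, Col1a2, Col3a1, Col5a1, Col5a2 and Col5a3) were each at least 4-fold higher in members in both libraries, although the first 3 are the rule itself. Col5a1, Col5a2 and Col5a3, the chains of the type V collagen that starts fibril assembly, were at 1328, 2118 and 787 CPM. The cartilage collagen Col2a1 had no UMI, and Col11a1 had 10. Of the 33 other collagens 12 reached 100 UMIs and 10 were at least 4-fold higher, led by Col12a1 at 3094 CPM and by the type VI chains Col6a1, Col6a2 and Col6a3 at 1066, 1133 and 1280 CPM. Of the elastic fibre and glycoprotein genes 14 of 18 reached 100 UMIs and all 14 were at least 4-fold higher. Of the small leucine-rich proteoglycans 3 of 11 did, Dcn, Bgn at 5374 CPM and Lum at 1152 CPM.
Of the collagen processing enzymes, 10 of 17 measured genes were at least 4-fold higher. The crosslinking enzymes Lox (550 CPM), Loxl1 (861 CPM) and Loxl2 (600 CPM) were at 0.0797, 0.438 and 0.239 CPM in the other cells. The collagen chaperone Serpinh1 was at 1370 CPM beside 307 CPM, and P4hb, a subunit of the prolyl hydroxylase, at 905 beside 455 CPM.
Of the matrix proteases and their inhibitors 11 of 13 measured genes were at least 4-fold higher, with Mmp2, Mmp14 (1037 CPM), Timp1 (5371 CPM) and the collagenolytic cathepsin Ctsk (931 CPM) among them.

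Of the growth factor ligands 4 of 9 measured genes were at least 4-fold higher (Hgf, Ccn2, Wnt5a and Inhba), beside 16.7% of all genes. Inhba (an activin subunit) was at 347 CPM, Wnt5a at 254 CPM, Fgf7 at 288 CPM and Hgf at 100 CPM, while Pdgfb, Bmp4 and Igf2 had no UMI. Tgfb1 was at 121 CPM in members and 60.4 CPM in the other cells. Of the receptors 8 of 15 measured genes were at least 4-fold higher, among them Pdgfra, Pdgfrb (238 CPM), Tgfbr2 (427 CPM), Osmr (284 CPM), which binds oncostatin M, and Il1r1 (263 CPM). All 9 measured TGF-beta response genes were at least 4-fold higher, a list that shares Col1a1 with the rule. The interferon, hypoxia and immediate early lists had 0 of 7, 0 of 6 and 0 of 7 measured genes at that level. Lists of 6 or 7 genes are too short to tell 0 from the share of 16.7% over all genes. The summed levels of these 3 lists were 3870, 2269 and 4284 CPM in members beside 4469, 2804 and 4969 CPM in the other cells.
Of 25 acetylcholine receptor, esterase and related genes, read because the treatment was aimed at acetylcholine signalling, 5 had any UMI (Chrm2, Chrm3, Chrna1, Chrnb1 and Chrnb4), 14 UMIs in all in 9 cells. At this depth such genes were not detectable above the level that free RNA can give, and their absence is not shown.

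The members were not alike. Clec3b (GRCm39 chr9:122979925-122987055, plus strand), which encodes tetranectin and marks the universal fibroblasts, was present or absent in whole cells. It had a UMI in 10 members, 6 of 13 in UT (46.2%, exact 19.2 to 74.9) and 4 of 44 in BUP (9.09%, 2.53 to 21.7), and none in the other 47. Of the 10, a UT cell with 1 UMI and a UT cell with 8 are weak cases, and the other 8 had 21 to 114. This split was chosen after the values had been seen and has no test. Pi16, a peptidase inhibitor of the same program, had a UMI in all 10 of these cells and in 21 of the 47 others, at 2054 against 50.4 CPM.

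With Clec3b went the matrix genes Tnxb (1615 CPM in the Clec3b cells against 32.6 CPM in the other members), Htra3 (1778 against 51.4 CPM), Col14a1 (1215 against 42.5 CPM), Fndc1 (805 against 40.6 CPM) and Dpt (765 against 73.2 CPM), and the complement gene C3 (900 against 59.3 CPM). The fibrillar collagens were higher too, Col1a1 at 18113 against 6166 CPM and Col3a1 at 26755 against 8572 CPM, both genes of the rule. Postn was higher as well, at 3230 against 971 CPM. Of the 3219 Col1a1 UMIs of the Clec3b cells, 2 UT cells gave 1017 and 1011. Of their 574 Postn UMIs, 1 UT cell with 8 Clec3b UMIs gave 274. UT supplied 6 of the 10 Clec3b cells and 7 of the 47 others, so the contrast is in part one of libraries. Lower in the Clec3b cells were Tnc, a glycoprotein of wounds and tumor stroma, at 405 against 4853 CPM, Spp1 at 1182 against 14305 CPM, Il1rl1 (the interleukin 33 receptor) at 22.5 against 561 CPM, Wnt5a at 5.63 against 298 CPM and Inhba at 5.63 against 407 CPM. Of the identity genes, Lum was at 1688 and 1057 CPM and Pdgfra at 248 and 359 CPM, but Fap stood at 197 against 27.7 CPM and Thy1 at 602 against 1998 CPM, and Dpt differed as given above. Of the Clec3b cells 4 of 10 had a Tnc UMI, against 44 of the 47 others.

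**Figure D3:**
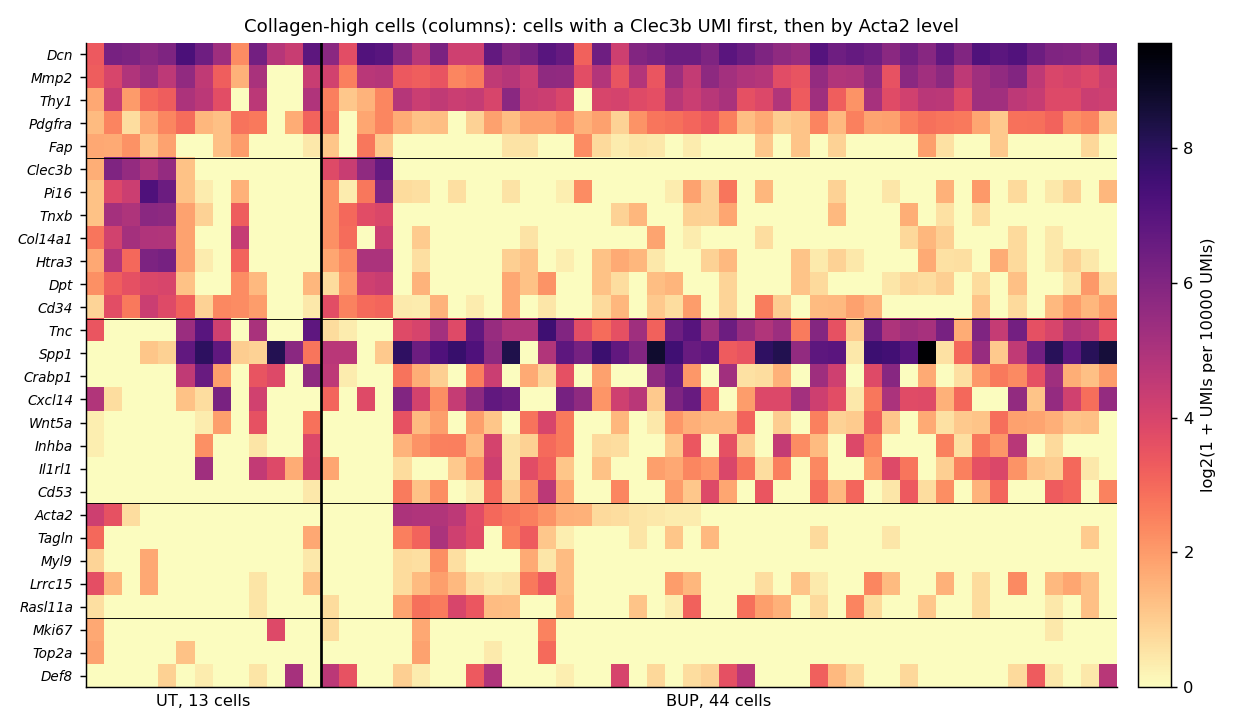
Level of 28 genes (rows, log2 of 1 plus UMIs per 10000 UMIs) in each of the 57 collagen-high cells (columns, UT left and BUP right of the vertical line), with cells that have a Clec3b UMI first in each library and the others ordered by Acta2. Most of the 6 UT and 4 BUP cells with Clec3b are dark for Pi16, Tnxb, Col14a1 and Htra3, except a UT cell with 1 or 2 UMIs of each, a BUP cell with no Col14a1 UMI and a BUP cell with 1 Pi16 UMI, and most are pale for Tnc and Spp1, and Acta2, Tagln and Myl9 are dark in a small set of cells only.

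The contractile genes were a further axis. Acta2 (GRCm39 chr19:34217737-34232990, minus strand) had a UMI in 20 of 57 members, 3 of 13 in UT and 17 of 44 in BUP, and its 5 highest cells held 74.2% of its 519 UMIs. The UT cells had 69, 19 and 1 UMIs, and the highest BUP cells 112, 100 and 60. In the other immune-negative cells Acta2 was at 0.159 CPM. Tagln (transgelin) had a UMI in 17 members, 12 of which also had Acta2. The 12 members with 8 or more Acta2 UMIs, a split made after the values were seen, had Tagln at 723 against 23.7 CPM in the other members, Myl9 at 80.9 against 3.56 CPM, Ccn2, a target of TGF-beta and mechanical stress, at 520 against 89.0 CPM, and Thbs1 at 1362 against 331 CPM. For Ccn2 a single cell gave 125 of the 180 UMIs, and 8 of the 12 cells had any. The genes with promoters shown at the start, Acta2 and Myl9, were found together in 8 cells, and Myl9 without Acta2 in 2.
Those 12 cells were deeper than the rest, with a median of 29292.5 against 16908 UMIs, and 2 of them had a Clec3b UMI. Their Col1a1 (9142 against 7464 CPM) and Tnc (4767 against 3950 CPM) were close to those of the other members. Cnn1 and Lmod1, markers of mature smooth muscle, had no UMI, and Tpm1, Cald1 and Myh9, which most cells express, were at 434, 1167 and 742 CPM in members and at 259, 506 and 273 CPM in the other cells. Of the contractile list 4 of 8 measured genes were at least 4-fold higher in both libraries (Acta2, Tagln, Tpm2 and Tgfb1i1), beside 16.7% of all genes.

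Of the matrix-producing list 11 of 11 measured genes were at least 4-fold higher, beside 16.7% of all genes. Postn, a matricellular protein of activated fibroblasts, had a UMI in 51 members, Cthrc1 in 39 and Lrrc15 in 28. Of the inflammatory list 3 of 8 measured genes were at least 4-fold higher, Cxcl12 at 654 CPM, Cxcl14 at 2520 CPM and the hyaluronan synthase Has1 at 133 CPM. Il6 had 7 UMIs in 7 cells. The chemokines Ccl2 (676 CPM) and Ccl7 (419 CPM) were also carried by the other immune-negative cells at 396 and 118 CPM and by immune cells at 2468 and 1417 CPM. Genes of antigen-presenting fibroblasts were low, since Cd74 had 7 UMIs and H2-Aa 2, against 3831 and 1586 CPM in immune cells.
Cycling cells were few. Mki67, a proliferation marker, had 5 or more UMIs in 3 members (1 UT, 2 BUP), all of which also had 8 or more Acta2 UMIs. Both cutoffs are raw counts, and these 3 cells were deep, at 38610, 38036 and 26321 UMIs. The last of them had 9 Acta2 UMIs. The 8 cell cycle genes summed to 174 CPM in members against 637 CPM in the other immune-negative cells.

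UT and BUP members were then compared, as the value of 1 library against 1 library and without a test. Of 2099 genes with at least 100 UMIs over all members, 131 (6.24%) were at least 2-fold higher in BUP and 155 (7.38%) at least 2-fold lower. The median log2 ratio of BUP over UT over all these genes was 0.15. Scaling to that median gave 78 higher and 200 lower. Without the deepest member of each library the counts were 95 and 95 of 1926 genes, and without the members with a Clec3b UMI 100 and 62 of 1747. Of the 155 lower genes 36 were among those 62, and of the 131 higher genes 45 were among those 100. Without the deepest members 84 of the 155 and 69 of the 131 were called again.

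Of the 11 measured fibroblast identity genes 0 were at least 2-fold higher in BUP and 1, Dpt, was lower, beside 6.24% and 7.38% of all genes. Without the Clec3b cells Dpt was at -0.67. On the log2 scale BUP over UT stood at 0.17 for Dcn (exact interval 0.09 to 0.26), 0.32 for Mmp2 (0.17 to 0.47) and -0.06 for Pdgfra (-0.42 to 0.32).
The universal list had 6 of 11 measured genes at least 2-fold lower (Pi16, Dpt, Cd34, Clec3b, Fndc1 and Sfrp2), 1 higher (Col15a1, at 0.75 without the Clec3b cells), and a median log2 ratio of -1.48, beside 0.15 over all genes. Without the Clec3b cells Cd34 was at -0.80 and Fndc1 at -2.55 (-3.50 to -1.57), the latter with 18 UT UMIs in 2 of 7 cells. UT members had Pi16 at 1321 CPM (1173 to 1482) and BUP members at 129 CPM (107 to 154), which is log2 -3.36 (-3.67 to -3.05). Its cells ran from 0 to 144 UMIs per 10000 in UT and from 0 to 66.0 in BUP, so that the cells overlap, and the 2 highest UT cells held 78.0% of the UT UMIs. For Clec3b the levels were 1271 and 271 CPM, log2 -2.23 (-2.48 to -1.98).
The 5 genes lowest in BUP were Cd55, a complement regulator, at -3.85 (-4.50 to -3.23), Col14a1 at -3.63 (-4.05 to -3.22), Tnxb at -3.60 (-3.98 to -3.24), Gpc6, a glypican, at -3.58 (-4.08 to -3.09), and Pi16. The 5 highest cells over both libraries held 65.3% to 82.5% of the UMIs of each. With the Clec3b cells left out, 7 UT and 40 BUP cells remained. Pi16 then turned to 1.10 (-0.53 to 3.43) and Sfrp2 to 0.08 (-0.68 to 0.93). Cd55 was at -4.65 (-5.62 to -3.76), Gpc6 at -3.08 (-3.76 to -2.41), Col14a1 at -2.83 (-3.76 to -1.90) and Tnxb at -2.09 (-3.18 to -0.94). These 4 values rest on few UT cells. The UT UMIs left were 47 in 4 cells for Cd55 and 42 in 2 cells for Gpc6. For Tnxb they were 12 in 2 cells, and for Col14a1 21 in 1 cell.

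The collagens of the rule behaved alike. UT members had Col1a1 at 14819 and BUP members at 6390 CPM, and Col3a1 at 19367 and 9453 CPM, with log2 ratios of -1.21 (-1.27 to -1.15) and -1.03 (-1.09 to -0.98). The 2 highest UT cells held 62.1% of the UT Col1a1 UMIs. Without the Clec3b cells the ratios were 0.12 (0.01 to 0.24) and 0.43 (0.32 to 0.53). Of the 11 measured matrix-producing genes 3 were at least 2-fold lower in BUP (Cthrc1, Ltbp2 and Adam12) and 0 higher. Of all genes 7.38% were lower and 6.24% higher. Without the Clec3b cells the log2 ratios of Cthrc1, Ltbp2 and Adam12 were 0.84, -1.23 and -0.26. For Postn (2147 CPM in UT, 1118 CPM in BUP) 1 UT cell held 57.9% of the UT UMIs, and its log2 ratio went from -0.94 (-1.10 to -0.78) to 1.41 (0.99 to 1.87) without the Clec3b cells. Fbn1 (fibrillin) had 3168 and 1061 CPM, log2 -1.58, and at -0.60 without those cells.
For Acta2 the level was 404 CPM in UT (324 to 497) against 444 CPM in BUP (403 to 488), log2 0.14 (-0.20 to 0.48). The UT level rests on 2 cells with 98.9% of its UMIs, both with Clec3b, so that without the Clec3b cells UT had no Acta2 UMI in 7 cells and BUP had 430 in 40.

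**Figure D4:**
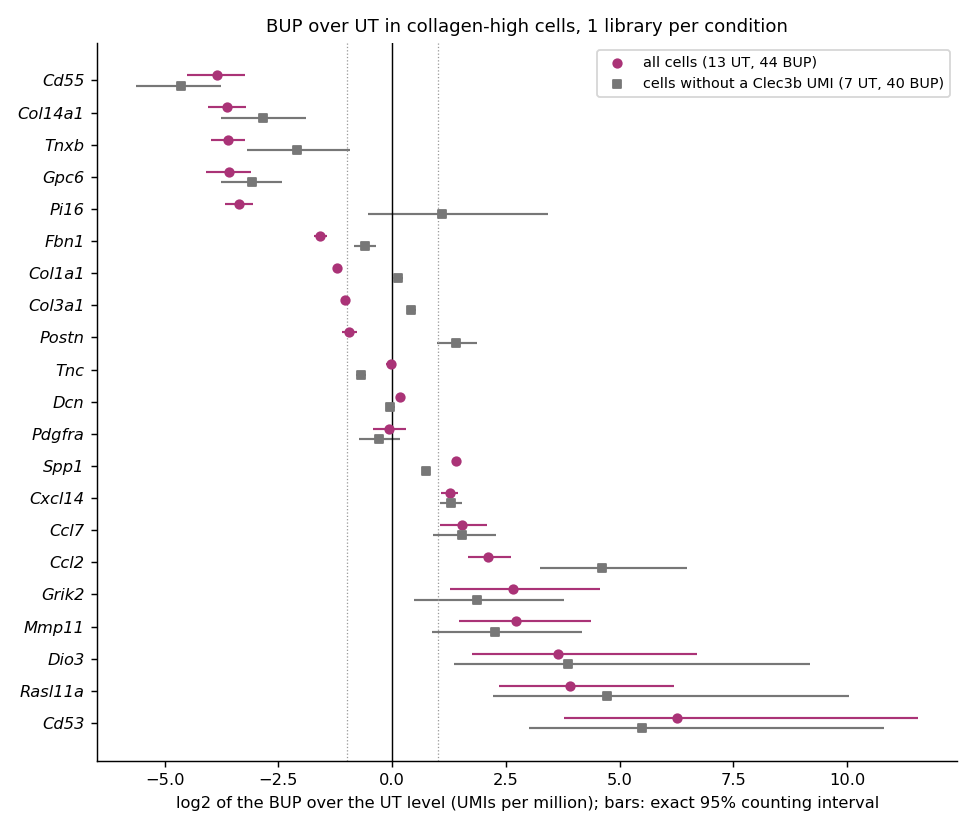
Log2 ratio of the BUP over the UT level (CPM) for 21 genes with exact 95% counting intervals (bars), in all 57 collagen-high cells (circles) and in the 47 without a Clec3b UMI (squares), where dotted lines mark 2-fold. Cd55, Col14a1, Tnxb and Gpc6 lie below -2 in both, Pi16, Col1a1, Col3a1 and Postn move from below 0 to above 0, and Cd53 and Rasl11a lie above 3 in both.

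Among genes higher in BUP, Cxcl14 was at 2826 CPM in BUP and 1176 CPM in UT (log2 1.27, 1.08 to 1.46), Ccl2 at 788 and 182 CPM (2.12, 1.66 to 2.61) and Ccl7 at 477 and 163 CPM (1.55, 1.06 to 2.08). These were the 3 of 8 measured inflammatory genes at least 2-fold higher, and C3 was lower, beside 6.24% and 7.38% of all genes. Ccl7 was at 0.37 when 1 immune UMI was allowed, and Cxcl14 at 0.89 at a collagen threshold of 100. Ccl2 was at 1.03 at a collagen threshold of 25, at 4.38 without the deepest member of each library and at 4.61 without the Clec3b cells. For Ccl2 a single BUP cell held 280 of 763 UMIs, and a single UT cell held 33 of 40. That UT cell was the deepest of UT and had a Clec3b UMI, so the last 2 settings left it out. Ccl2 and Ccl7 are also genes of the immune cells, and the part of immune RNA in their levels was not tested. Lyz2, the most abundant macrophage marker, was at 45.4 CPM in UT members and 22.7 CPM in BUP members. The 8 macrophage markers together, Lyz2 included, were at 104 CPM in UT members and 105 CPM in BUP members. Spp1 stood at 5242 CPM in UT against 13958 CPM in BUP (log2 1.41, 0.74 without the Clec3b cells and 3.21 at a collagen threshold of 100), with a median per cell of 1.18 and 109 UMIs per 10000 and 73.6% of the UT UMIs in 1 cell.

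The gene with the largest ratio was Cd53 (GRCm39 chr3:106666177-106697530, minus strand), which encodes a tetraspanin best known from leukocytes. It had 1 UMI in 1 of 13 UT members and 336 UMIs in 27 of 44 BUP members, up to 63 in a cell, that is 4.54 CPM (0.115 to 25.3) and 347 CPM (311 to 386). The log2 ratio, 6.26, has an interval from 3.77 to 11.6. In the other immune-negative cells Cd53 came with Lyz2, at 4.08 (UT) and 4.24 (BUP) UMIs per 100 UMIs of Lyz2, and in immune cells at 3.24 and 4.44. In the BUP members there were 336 UMIs of Cd53 for 22 of Lyz2. Lyz2 was read as a macrophage marker only, and the source of the Cd53 UMIs in the members was not tested. None of the 10 Clec3b cells had a Cd53 UMI, but 6 of these were UT cells. In BUP, where 27 of the 40 other members had Cd53, only 4 cells had Clec3b. The other 4 of the 5 highest genes were Rasl11a, a Ras-like GTPase gene, with 3 UMIs in UT and 198 in BUP (log2 3.91, interval from 2.34 upward), Dio3, the deiodinase that inactivates thyroid hormone, with 2 and 110 UMIs (3.65, 1.76 to 6.71), Mmp11, a metalloproteinase of tumor stroma, with 5 and 146 UMIs in 4 and 35 cells (2.73, 1.48 to 4.38), and Grik2, a kainate receptor subunit, with 4 and 111 UMIs (2.66, 1.26 to 4.56). The 5 cells with most held 46.6% of the UMIs of Cd53, 62.7% for Rasl11a, 58.9% for Dio3, 45.7% for Mmp11 and 73.9% for Grik2. The other collagens had 1 of 12 measured genes higher (Col15a1) and 1 lower (Col14a1), collagen processing enzymes 0 of 17 and 1 (Loxl2, at -0.11 without the Clec3b cells), elastic fibre and glycoprotein genes 0 of 14 and 1 (Fbn1), matrix proteases and inhibitors 1 of 13 (Mmp11) and 1 (Adamts5), growth factor ligands 0 of 9 and 1 (Grem1), TGF-beta response genes 0 of 9 and 3 (Ltbp2, Col1a1 and Cthrc1), and contractile genes 1 of 8 (Tpm2) and 0. Over all 2099 measured genes 6.24% were higher and 7.38% lower, and a count of 0 or 1 in such a list is near that share. Of the antigen-presenting list the 1 measured gene, Saa3, was higher. The small leucine-rich proteoglycans, hypoxia genes and immediate early genes had 0 measured genes past 2-fold in either direction. Their median log2 ratios were 0.17, 0.41 and 0.67. Interferon genes had 1 of 7 higher (Gbp2, at 0.92 without the Clec3b cells) and 1 lower (Ifi27l2a), and growth factor receptors 0 of 15 higher and 1 lower, Tgfbr2, with 799 CPM in UT against 342 in BUP (log2 -1.22, -1.49 to -0.95), which went to 0.67 (0.05 to 1.35) without the Clec3b cells.

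**Figure D5:**
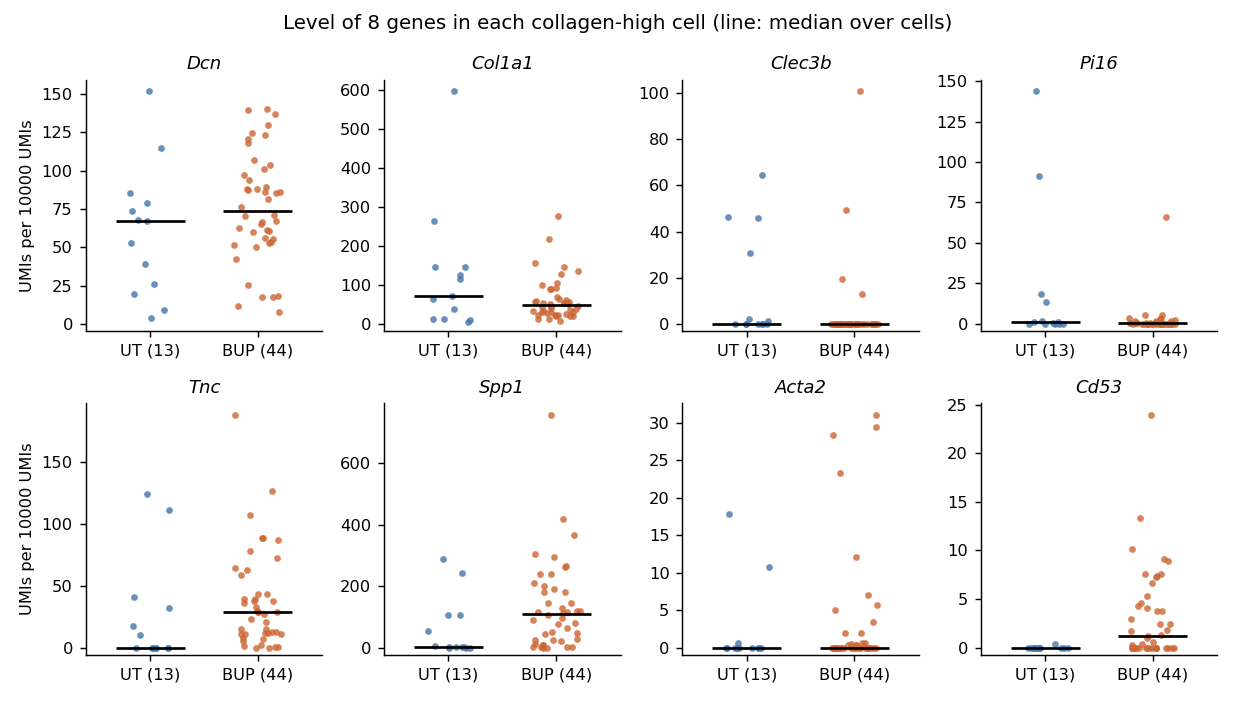
Level of Dcn, Col1a1, Clec3b, Pi16, Tnc, Spp1, Acta2 and Cd53 in UMIs per 10000 UMIs in each collagen-high cell, 13 UT (blue) and 44 BUP (orange), with a line at the median over cells. Dcn overlaps between the libraries, Clec3b and Acta2 are at 0 in most cells of both, and Cd53 is above 0 in 27 BUP cells and 1 UT cell.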

How the data were processed

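Cells of subcutaneous CT26 tumors were measured by 10x 5′ single-cell RNA sequencing in 1 UT and 1 BUP library of 3 pooled tumors each, and groups were taken from the sample labels. The deposited values are raw counts of UMIs per gene and barcode, made by the authors with Cell Ranger 8.0.1 (file headers and the submitters' processing notes) on GRCm39, without normalization. Barcodes with under 20% mitochondrial UMIs were kept, 7163 of 7556 in UT (83228442 UMIs) and 6776 of 7221 in BUP (89918925 UMIs). Doublets were kept. Scrublet (scanpy 1.11.5) called 0.0279% of UT cells and 2.33% of BUP cells. The UT rate is too low for a working caller, so its calls were not used in either library.

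The rule for the members and all gene lists were chosen with earlier results of these data known. UMIs were summed over cells with pandas 2.3.3, scipy 1.17.1 and numpy 2.4.6 (Python 3.11.15). Levels carry exact Poisson, shares exact binomial (Clopper-Pearson), and ratios exact conditional 95% intervals, for counting error only. With 1 library per condition no test was made. Comparison cells had at least 5000 UMIs, a collagen sum under 5 and hemoglobin UMIs under 1000 per 10000, and no Ptprc, Cd3e or C1qa UMI. A sum under 3 UMIs was set to 3 for calls of a fold. Named genes are members of the lists, the 20 leading and 10 highest genes, and the 5 highest and 5 lowest BUP over UT ratios among genes with at least 100 UMIs over all members, at least 100 CPM in 1 library and a UMI in at least 10 members. Genes named for the Clec3b and Acta2 splits, Def8 and Xist were added after their values were seen. The ratio calculation was tested on simulated Poisson counts in which every cell of a library had the same profile. Differences between cells were not simulated, so the test does not cover ratios carried by a few cells. Alternatives changed the collagen threshold, the immune and cell filters, doublet removal, scaling, weighting of cells, thinning, UMI minimum, comparison cells and denominators. Some genes that these rules select are not reported here.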

Additional observations from a re-analysis of the deposited data

Results flagged for a closer look

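In the BUP library 10 barcodes passed the collagen threshold but carried a Ptprc, Cd3e or C1qa UMI and were left out, against 2 in UT, both counts being of data outside the comparisons above. The BUP barcodes had 1 to 119 such UMIs with a median of 1, a median of 22972.5 UMIs, Lum at 1053 CPM, Pdgfra at 254 CPM, Lyz2 at 1629 CPM, C1qa at 541 CPM and Cd53 at 610 CPM.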

How the results depend on the processing

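No paired analysis was possible because each condition is 1 library and the labels give no replicate numbers that the conditions share. No replicate was left out, since there is none.

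At a collagen threshold of 25 per 10000 the collagen-high share was 2.99% in UT and 3.61% in BUP, and with all cells as the denominator 0.181% and 0.649%. In the other 6 settings each share stayed within its interval and BUP stayed above UT. The summed fibroblast identity genes were at 12261 CPM at the threshold of 25, 17160 CPM at 100, 16665 CPM with at most 1 immune UMI allowed and 16562 CPM after removing the 6% of cells that Scrublet scored highest. They were at 16854 CPM without the members with 10 or more Def8 UMIs, 16572 CPM without the deepest member of each library and 16700 CPM without the members with a Clec3b UMI. These last 3 settings were chosen after seeing the data.

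Genes at least 2-fold lower in BUP numbered 275 of 3645 measured genes (7.54%) at the threshold of 25, with 124 higher (3.40%). Without the deepest members 95 of 1926 were lower (4.93%) and 95 higher (4.93%). Without the Clec3b members 62 of 1747 were lower (3.55%) and 100 higher (5.72%). After thinning to 2000 UMIs per cell, with a minimum of 20 UMIs per gene, 97 of 938 were lower (10.3%) and 159 higher (17.0%). The main setting had 7.38% lower and 6.24% higher. Of its 131 higher and 155 lower genes, 55 and 91 were called again at the threshold of 25. After thinning 37 and 55 were. Of the 2099 genes of the main setting, 237 were at least 2-fold higher with cells weighted equally (195 lower) and 78 with scaling to the median ratio (200 lower). With a minimum of 20 UMIs in place of 100, 814 genes were at least 4-fold higher in members, 520 were higher and 946 lower in BUP, out of 7193. Without the Clec3b members the log2 ratio of BUP over UT changed sign for Pi16 (1.10), Col1a1 (0.12), Col3a1 (0.43), Sfrp2 (0.078), Postn (1.41), Tgfbr2 (0.67), Cthrc1 (0.84) and others near 0, such as Dcn (-0.04), and the cause was not tested. Of 380 recomputed values of BUP over UT for 32 genes, 260 lay within the counting interval of the reported value, and 21 values of 11 genes had the opposite sign. At the threshold of 100 they included Acta2 (-0.78), Tagln (-0.15), Crabp1 (0.35) and Tnc (0.52). Thinning left few UMIs per gene, and the log2 ratios of Cd53, Mmp11 and Dio3 were then 0.93, 0.71 and 0.24, with sums under 3 UMIs set to 3. After thinning no ratio was given for Rasl11a, Grik2 and Fap, nor for Clec3b without its own cells. The 13 UT cells limit every comparison.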

Other observations

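Immune-negative cells with a collagen sum of 25 to 50 per 10000, 17 in UT and 37 in BUP, are described here as values. Their Def8 was at 3424 and 6550 CPM, near that of the other immune-negative cells (4801 and 5751 CPM), and members had 86.2 and 434 CPM. Among the 14 UT and 32 BUP cells of at least 5000 UMIs in this range, Y-linked genes were at 13.4 and 43.2 CPM, against 150 and 118 CPM in all members, Lum was at 281 and 199 CPM and Mmp2 at 116 and 578 CPM, and the small leucine-rich proteoglycan genes Ogn and Aspn were at 737 and 317 CPM in UT and 326 and 460 CPM in BUP. Over the steps of collagen below this band, from 1 to 5 through 5 to 10 to 10 to 25 per 10000, Ogn was at 59.2, 193 and 446 CPM in UT and at 97.4, 266 and 464 CPM in BUP, with Lum at no more than 14.5 CPM and Y-linked genes at no more than 1.37 CPM. In cells with a collagen sum under 1 per 10000, the UT library gave 40.4 CPM of Y-linked genes and the BUP library 35.9 CPM. Col1a2 alone was at 533 CPM in all immune-negative cells below the threshold.

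Members of the collagen-high set also carried Ogn (71 UMIs, 9 cells) and Aspn (76 UMIs, 15 cells) at 59.7 and 63.9 CPM, with 88.7% and 84.2% of the UMIs in 5 cells. In UT they stood at 163 and 268 CPM, and without the Clec3b cells at 0 and 1 UMIs.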
